A study of Mus musculus with 6 samples.

Results

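The rows described here are the 346 transcripts of the deposited mouse transcript table whose identifiers begin with XLOC, out of 65535 transcripts in all. Dropping the last number of each identifier groups them into loci, of which 215 hold 1 transcript and 38 hold several. The rule that picks them uses the identifier alone and not their values, although earlier results of these data were known when it was set. The table gives neither coordinates nor a gene name for any of them. The level of a locus was taken as the sum of its transcripts' FPKM (fragments scaled to the length of the transcript and to the mapped fragments of the library), the unit of the deposited values.

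The study measured RNA in GC2-spd cells, an established mouse line labelled as spermatocytes, after exposure to triptonide (2 libraries) or to triptolide, spelled "Tiptolide" in its labels (2 libraries), and in control cells (2 libraries). RNA was freed of ribosomal RNA before strand-directed library construction and paired sequencing of 150 bases. The treatment text gives 0.1 µM triptolide for 24 h and no dose or time for triptonide or content of the control, so the triptonide and triptolide exposures cannot be said to match. The design text speaks of testis, whereas all 6 libraries are labelled as the cell line.

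Triptolide is a diterpenoid triepoxide from Tripterygium wilfordii that binds XPB, the helicase subunit of the general transcription factor TFIIH, and blocks initiation by RNA polymerase II. Triptonide is its close analog, with a ketone in place of a hydroxyl group. Identifiers of the XLOC kind are running numbers that transcript assembly programs give to clusters of overlapping transcripts built from the reads. A cluster with no annotated name can be a long non-coding RNA, an extension or antisense partner of a known gene, a repeat or a fragment of incompletely processed RNA, and the identifier does not say which.

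Many of these loci were scarce or listed at 0 in control cells and measurable after triptolide. The median locus stood at 1.13 and 1.34 FPKM in the triptonide libraries, 1.79 and 1.75 FPKM in the triptolide libraries, and 0.113 and 0.105 FPKM in the control libraries. Of all the loci, 136 and 158 reached 1 FPKM in the triptonide libraries, 189 and 190 in the triptolide libraries, and 78 and 73 in the control libraries. The numbers listed at exactly 0 were 33 and 27 with triptonide, 23 and 19 with triptolide, and 96 and 98 in control cells. In each of these measures the triptonide libraries lay between the triptolide and control libraries, with no overlap. The annotated transcripts of the same libraries showed another order, with 23.0% and 22.7% of them at 1 FPKM or more with triptonide, 20.6% and 20.9% with triptolide, and 22.0% and 22.8% in control cells.

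The unannotated set itself differed from the rest of the table in what it listed. None of its 346 transcripts was at 0 in all 6 libraries, against 15228 of 65189 annotated transcripts, and 98.8% of loci reached 1 FPKM in at least 1 library, against 30.1% of annotated transcripts. Comparisons with annotated transcripts below are therefore given, where possible, over the 19594 that reached 1 FPKM somewhere. The highest value of a locus fell in a triptonide library for 51 loci (20.2%), in a triptolide library for 162 (64.0%) and in a control library for 40 (15.8%). Among the 19594 annotated transcripts the shares were 30.0% for triptonide, 23.9% for triptolide and 46.1% for control libraries. FPKM is a share of each library, and fewer cells of a kind cannot be told apart from less RNA per cell. Relative depth, read from the steps of low FPKM values, was 0.763 and 0.737 for triptonide, 0.599 and 0.674 for triptolide, and 0.818 and 1.0 for control, so the libraries with most loci above 0 were the shallowest, and the part of depth in the counts was not tested.

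**Figure D1:**
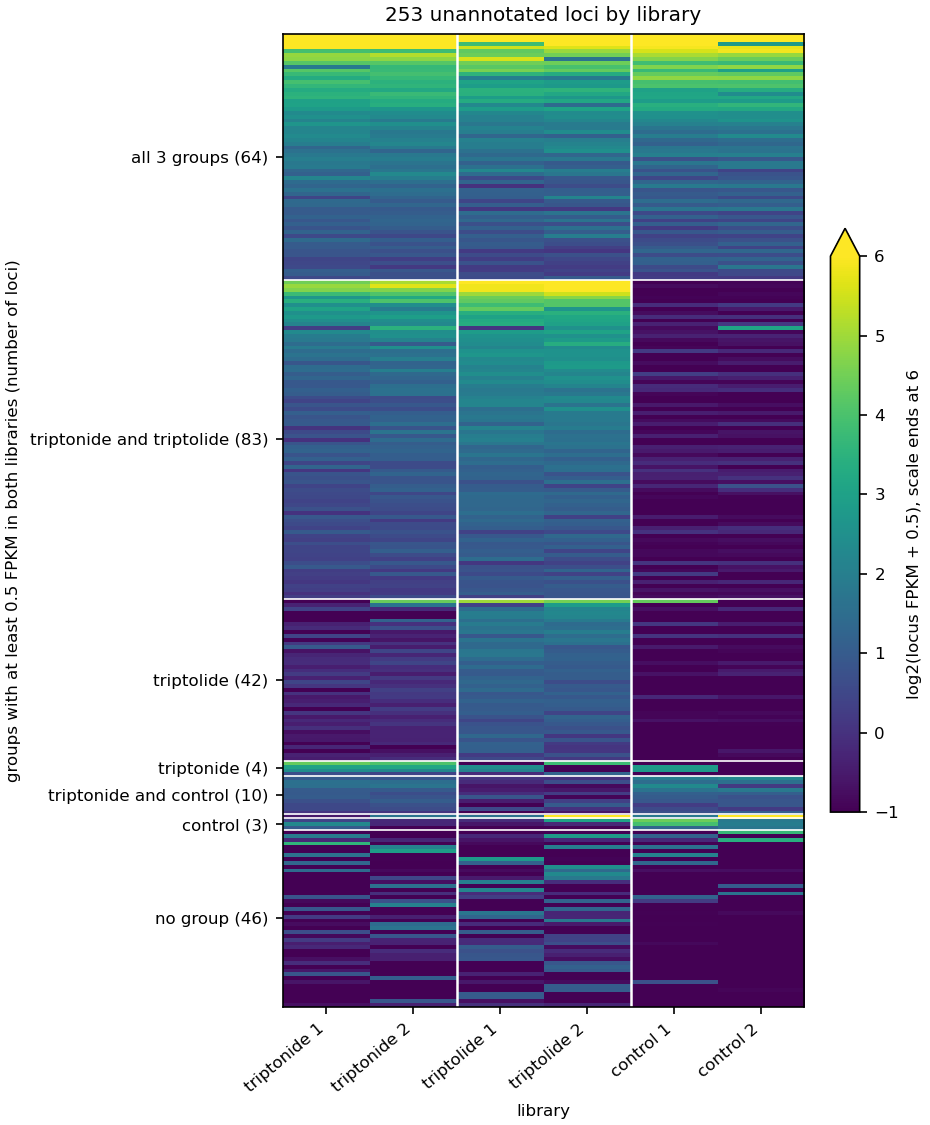
Heat map of all unannotated loci (rows) in the 6 libraries (columns), coloured by log2(locus FPKM + 0.5) with the colour scale ending at 6, and grouped by which groups had at least 0.5 FPKM in both libraries (loci per class in brackets; the 1 locus of the class triptolide and control is drawn without a label). The 83 loci of the class triptonide and triptolide and the 42 of the class triptolide are mostly dark in the control columns. Exceptions include XLOC.5257 of the class triptolide, with 19.9 FPKM in control replicate 1.

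By presence, defined as at least 0.5 FPKM in both libraries of a group, 83 loci (32.8%) were present after triptonide and triptolide and not in control cells. Another 64 loci (25.3%) were present in all 3 groups, 42 (16.6%) with triptolide alone, 10 (3.95%) with triptonide and in control cells, 4 with triptonide alone, 3 in control cells alone and 1 with triptolide and in control cells. The remaining 46 loci (18.2%) met the definition in no group. A group that does not meet it can still hold 1 library above 0.5 FPKM. Control cells did so at XLOC.5257 (19.9 and 0 FPKM), which is in the class of triptolide alone. Of the 19594 annotated transcripts, 67.0% were present in all 3 groups, 6.12% with both compounds and not in control cells, and 2.86% with triptolide alone. The heat map of the loci by library shows these classes, in which the triptolide class is dim and uneven in the triptonide columns.

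In both control libraries, 79 loci were listed at 0. Of these, 12 reached 1 FPKM in each triptonide library, 42 in each triptolide library, and 11 in all 4 treated libraries. The 12 are 4.74% of all loci and the 42 are 16.6%, against 0.439% and 0.612% of the annotated transcripts that reached 1 FPKM somewhere. Whatever their level in control cells, 13 loci were listed at 0 in both triptonide libraries and 8 in both triptolide libraries. In the other direction, 0 loci reached 1 FPKM in each control library and were at 0 in both triptonide libraries, against 0.0766% of those annotated transcripts. For triptolide there was 1 such locus (0.395%), against 0.347%. An exact 0 in such a table may be a failed estimate as well as a low level. A pair of zeros also adds no spread to a test, so the p-values of such loci may be too small, and no fold change against a group listed at 0 is given.

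Differences between groups were tested with limma on log2(FPKM + 0.5), fitted to all 6 libraries and to every row of the table with the loci entered as sums. Features needed at least 0.5 FPKM in at least 2 libraries, which left 221 loci for testing and 32 untested, and p-values were adjusted by Benjamini-Hochberg over all 23337 features. Fold changes are differences on that log2 scale, which understates changes of low values, and a call means an adjusted p under 0.05. Loci that passed the filter only through a group in which they were high had to differ, so the counts of calls describe the 221 tested loci and not all of them.

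With triptolide, 127 of the tested loci were higher than in control cells, where 12.3% of all features were called higher, and 21 were lower, where 23.1% of all features were called lower. Another 73 were not called, and the 95% interval of 47 of those reached beyond a log2 change of 1. The median log2 fold change of the loci was 1.51, against -0.26 over all features, and 0.94 over the 163 loci with a value above 0 in both groups. Of the calls, 121 loci were higher and 13 lower by 2-fold or more. Over all loci, tested or not, both triptolide libraries lay above both control libraries at 159 loci, against 19.4% of all features, and below them at 37, against 23.4%. Among the 19594 annotated transcripts the shares were 23.0% above and 47.6% below. Without either control library the lower calls fell over all features as well as among the loci. Leaving out either control library gave 9 lower loci.

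With triptonide, 73 loci were higher than in control cells (6.23% of all features) and 5 were lower (4.36% of all features), while 143 were not called. The interval of 95 of the uncalled loci reached beyond a log2 change of 1. The median log2 fold change was 0.74, against -0.01 over all features, and 0.55 over the 166 loci above 0 in both groups. Higher calls of 2-fold or more numbered 66 and lower ones 3. Both triptonide libraries lay above both control libraries at 150 of all loci (19.0% of all features) and below them at 27 (15.1% of all features). Among the 19594 annotated transcripts the shares were 27.5% above and 31.2% below. Leaving out any 1 library lowered the calls over all features, in both directions, as well as those of the loci. The counts of calls rested on every library of the comparison: limma called 26 higher loci without triptonide replicate 1, 14 without triptonide replicate 2, 12 without control replicate 1 and 13 without control replicate 2. The 5 lower calls became 1 without triptonide replicate 1 and 2 without triptonide replicate 2, 2 without either triptolide library, and 0 without either control library, where 109 loci (control replicate 1 left out) and 105 loci (control replicate 2 left out) had an unadjusted p under 0.05 in either direction.

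Set against triptolide, triptonide left 12 loci higher (12.2% of all features) and 45 lower (3.62% of all features), with 164 not called. Of the uncalled loci, 113 had an interval reaching beyond a log2 difference of 1. The median log2 difference was -0.51, against 0.24 over all features, and -0.52 over the 216 loci above 0 in both groups. Differences of 2-fold or more numbered 4 higher and 33 lower. Both triptonide libraries lay above both triptolide libraries at 43 of all loci (22.6% of all features) and below them at 125 (13.4% of all features). Among the 19594 annotated transcripts the shares were 46.4% above and 15.7% below. After median-of-ratios scaling the loci numbered 28 above and 147 below, against 29.3% and 28.5% of those annotated transcripts. With any 1 library left out, calls between the compounds fell over all features too, in both directions. Without triptonide replicate 1 limma called 0 loci in either direction, with 84 at an unadjusted p under 0.05. The higher and lower calls were 4 and 20 with triptonide replicate 2 left out, 6 and 8 when triptolide replicate 1 was left out, 8 and 6 when its replicate 2 was, and 6 and 23 without either control library. Median-of-ratios scaling gave 3 higher and 67 lower loci and quantile normalization 6 and 62.

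**Figure D2:**
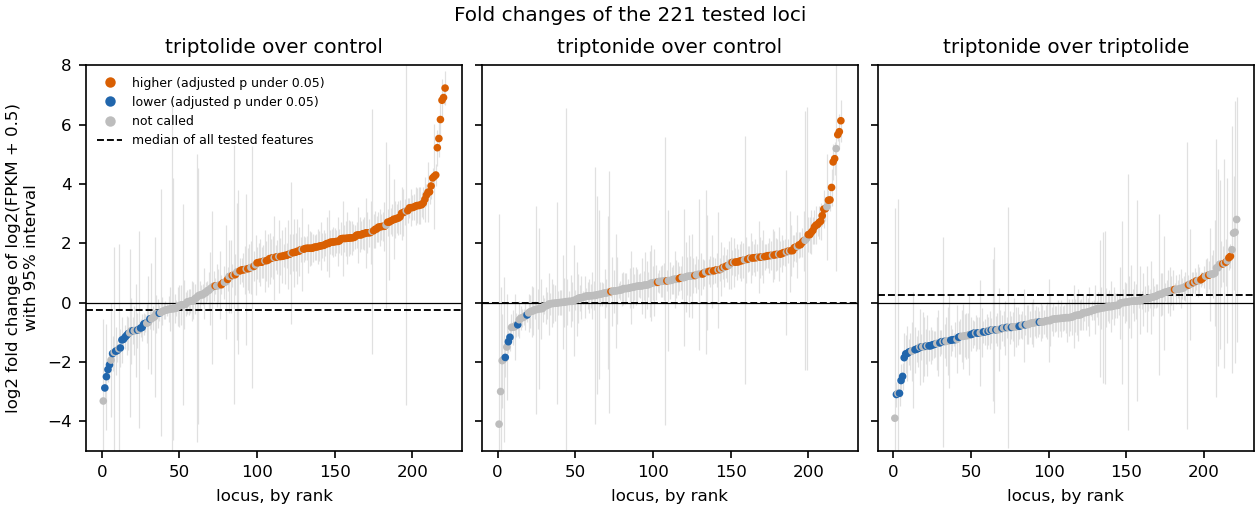
Log2 fold change (difference of mean log2(FPKM + 0.5), dots) and 95% interval (grey lines, cut at the axis ends of -5 and 8) of the 221 tested loci, ranked within each comparison, with the median of all tested features dashed. Orange and blue dots are the 127 and 21 loci called higher and lower with triptolide than in control cells, the 73 and 5 with triptonide, and the 12 and 45 in triptonide set against triptolide.

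The comparisons with control share its 2 libraries, and that between the compounds shares theirs, so the calls are given side by side. Of the tested loci, 43 (19.5%) were called higher with both compounds and not called between them, against 4.07% of all 23337 features. Another 27 (12.2%) were higher with both compounds and lower with triptonide than with triptolide, against 1.08% of all features. A further 39 (17.6%) were higher with triptolide and called in no other comparison, against 4.89%, and 18 (8.14%) were higher with triptolide and lower with triptonide than with triptolide, against 2.13%. Of the 45 lower calls between the compounds, 21 were at loci present with triptolide alone. Loci that entered the test only through triptolide had to differ, so neither of these shares can be read as an excess. Among the lower loci, 11 (4.98%) were called with triptolide only, against 10.7% of all features, 5 (2.26%) were lower with triptolide and higher with triptonide than with triptolide, against 8.33%, and 4 (1.81%) were lower with both compounds and higher with triptonide than with triptolide, against 2.33%. No comparison called 68 of the loci (30.8%), against 62.3% of all features. The other 6 loci had other combinations of calls.

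Loci with several transcripts were more abundant than those with 1 transcript, with median mean levels of 4.43 and 1.06 FPKM. Among the 37 tested loci with several transcripts, 14 were higher and 2 lower with triptonide, and 18 were higher and 8 lower with triptolide, each against control. Between the compounds, 9 of these loci were higher and 9 lower with triptonide than with triptolide. The 184 tested loci with 1 transcript had 59 higher and 3 lower calls with triptonide, 109 higher and 13 lower calls with triptolide, and 3 higher and 36 lower calls between the compounds. Over all features the higher and lower shares were 6.23% and 4.36%, 12.3% and 23.1%, and 12.2% and 3.62% in that order. These kinds of locus differ in level and in how many passed the filter (37 of 38 and 184 of 215). The difference in calls between them was not tested.

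Among loci called over control, the 6 with the largest rises with triptonide were also those with triptolide. XLOC.610 had 21.7 and 34.1 FPKM with triptonide and 78.0 and 74.8 FPKM with triptolide, against 0 and 0.0225 FPKM in control cells. XLOC.1101 had 24.9 and 24.8 FPKM with triptonide and 56.7 and 63.1 FPKM with triptolide, and was listed at 0 in both control libraries. XLOC.6953 had 29.7 and 50.6 FPKM with triptonide, 57.6 and 68.9 FPKM with triptolide, and 0.0754 and 0.0475 FPKM in control cells. At each of these loci all 4 treated libraries lay far above both control libraries, and both triptolide libraries lay above both triptonide libraries.

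For XLOC.610 the log2 fold change over control was 5.76 ± 0.22 (SE, 2 libraries a group) with triptonide and 7.23 ± 0.22 with triptolide. XLOC.6953 rose by 6.13 ± 0.27 with triptonide and by 6.82 ± 0.27 with triptolide. At XLOC.1101 no fold over control is given. All 3 loci reached 0.5 FPKM in the treated libraries alone, so they entered the test only where they were high and had to differ from control. Their values against control are therefore a description, with no test. The triptonide call over control at XLOC.610 was lost with the leading transcript alone. Between triptonide and triptolide the log2 difference was -1.25 ± 0.09 at XLOC.1101 (limma adjusted p = 0.00670) and -1.47 ± 0.22 at XLOC.610 (limma adjusted p = 0.0197). At XLOC.6953 the log2 difference between the compounds was -0.69 ± 0.27 and was not called (limma adjusted p = 0.161). The call between compounds at XLOC.1101 was lost without triptonide replicate 1 and that at XLOC.610 was lost without triptonide replicate 1, either triptolide library or either control library. Both were also lost with the leading transcript alone.

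The other 3 of the 6 loci were lower in level. XLOC.2484 had 13.2 and 16.2 FPKM with triptonide and 30.8 and 44.6 FPKM with triptolide, against 0 and 0.0481 FPKM in control cells. XLOC.2486 had 10.2 and 16.0 FPKM with triptonide and 19.2 and 17.1 FPKM with triptolide, and was listed at 0 in both control libraries. XLOC.1107 had 5.85 and 8.94 FPKM with triptonide and 21.2 and 26.6 FPKM with triptolide, against 0.0218 and 0.0269 FPKM in control cells. Again the groups did not overlap at any of the 3 loci. Log2 fold changes over control were 4.85 ± 0.22 with triptonide and 6.17 ± 0.22 with triptolide at XLOC.2484. At XLOC.1107 they were 3.88 ± 0.23 with triptonide and 5.53 ± 0.23 with triptolide. These 3 loci also reached 0.5 FPKM in the treated libraries alone and had to differ from control, so no test against control is given. Between the compounds, the log2 difference was -1.31 ± 0.22 at XLOC.2484 (limma adjusted p = 0.0240) and -1.65 ± 0.23 at XLOC.1107 (limma adjusted p = 0.0171), while the log2 difference at XLOC.2486 was -0.49 ± 0.23 and was not called (limma adjusted p = 0.225). The call between compounds at XLOC.2484 was lost without any 1 library except triptolide replicate 1, and that at XLOC.1107 without triptonide replicate 1 or either triptolide library. With the leading transcript alone, XLOC.1107 lost both the triptonide call over control and the call between compounds.

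**Figure D3:**
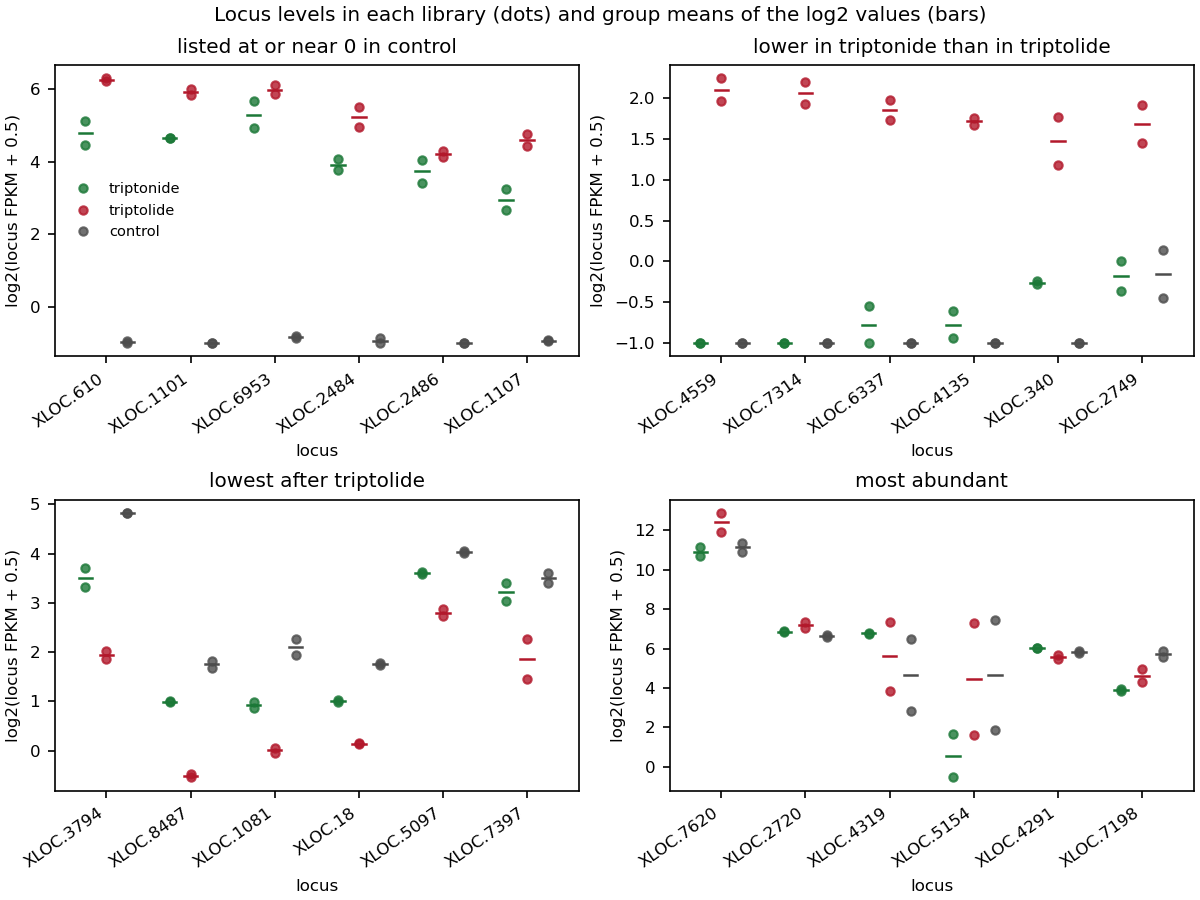
Levels of 24 loci as log2(locus FPKM + 0.5) in each library (dots) with the mean of each group's log2 values (bars), for triptonide (green, left), triptolide (red, middle) and control (grey, right). The loci of the upper left panel have every treated library above both control libraries, while XLOC.4319 and XLOC.5154 in the lower right panel have replicates more than 10-fold apart.

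Among loci called between triptonide and triptolide, the 6 with the largest negative differences were measured with triptolide and were scarce or listed at 0 with triptonide. XLOC.4559 had 3.39 and 4.22 FPKM with triptolide and was listed at 0 in both triptonide and both control libraries. XLOC.7314 had 3.30 and 4.08 FPKM with triptolide and was also listed at 0 in the other 4 libraries. XLOC.6337 had 0 and 0.183 FPKM with triptonide, 2.83 and 3.42 FPKM with triptolide, and 0 in both control libraries. These 3 loci were thus close to or at 0 outside the triptolide libraries. XLOC.4135 had 0.0222 and 0.154 FPKM with triptonide and 2.68 and 2.88 FPKM with triptolide, and XLOC.340 had 0.323 and 0.348 FPKM with triptonide and 2.91 and 1.76 FPKM with triptolide, both with 0 in the control libraries. All 5 of these loci reached 0.5 FPKM in the triptolide libraries alone, so they entered the test only where they were high and had to differ. Their values are therefore given as a description, with no test.

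XLOC.2749 differed from those 5 in being above 0 everywhere. It had 0.277 and 0.507 FPKM with triptonide and 3.27 and 2.22 FPKM with triptolide, against 0.605 and 0.235 FPKM in control cells. The triptolide libraries stood apart, whereas the triptonide and control libraries overlapped. It was 1.83 ± 0.31 higher on the log2 scale with triptolide than in control cells (limma adjusted p = 0.0129) and the log2 difference between triptonide and triptolide was -1.86 ± 0.31 (limma adjusted p = 0.0250). The call over control was lost without triptolide replicate 1 or control replicate 2. The call between triptonide and triptolide was lost without any 1 of the triptonide or triptolide libraries, when the group concerned is a single library assumed to vary like the others.

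A smaller number of loci fell with triptolide. XLOC.3794 had 9.44 and 12.5 FPKM with triptonide and 3.56 and 3.13 FPKM with triptolide, against 27.9 and 27.6 FPKM in control cells. Its log2 fold change over control was -1.32 ± 0.15 with triptonide (limma adjusted p = 0.0163) and -2.88 ± 0.15 with triptolide (limma adjusted p = 0.000929), and the difference between triptonide and triptolide was 1.56 ± 0.15 (limma adjusted p = 0.00900). The 3 groups did not overlap, with triptonide in the middle. The triptonide call over control was lost without either control library, and the call between the compounds was lost without triptonide replicate 1. Both were also lost with the leading transcript alone.

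XLOC.8487 had 1.50 and 1.47 FPKM with triptonide, 0.217 and 0.186 FPKM with triptolide, and 2.70 and 3.03 FPKM in control cells. Its log2 fold change was -2.26 ± 0.15 with triptolide (limma adjusted p = 0.00138), and triptonide stood 1.51 ± 0.15 above triptolide (limma adjusted p = 0.00953), a call lost without triptonide replicate 1. XLOC.1081 had 1.49 and 1.32 FPKM with triptonide, 0.539 and 0.472 FPKM with triptolide, and 3.33 and 4.33 FPKM in control cells, and XLOC.18 had 1.53 and 1.48 FPKM, 0.590 and 0.609 FPKM, and 2.82 and 2.94 FPKM in the same groups. The order triptolide, triptonide, control from low to high held for every library at these 3 loci. With triptonide the log2 fold changes over control were -1.17 ± 0.18 at XLOC.1081 (limma adjusted p = 0.0289) and -0.75 ± 0.14 at XLOC.18 (limma adjusted p = 0.0420), and both of these calls were lost when any one of the 6 libraries was left out. With triptolide they were -2.10 ± 0.18 at XLOC.1081 (limma adjusted p = 0.00221) and -1.62 ± 0.14 at XLOC.18 (limma adjusted p = 0.00221).

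XLOC.5097 had 11.9 and 11.5 FPKM with triptonide, 6.82 and 6.12 FPKM with triptolide, and 15.7 and 16.0 FPKM in control cells. It fell by 1.24 ± 0.08 on the log2 scale with triptolide (limma adjusted p = 0.00132). XLOC.7198 had the opposite order of the compounds, with 14.9 and 13.6 FPKM with triptonide, 19.0 and 30.5 FPKM with triptolide, and 47.4 and 58.7 FPKM in control cells. Its log2 fold change over control was -1.85 ± 0.25 with triptonide (limma adjusted p = 0.0214) and -1.11 ± 0.25 with triptolide (limma adjusted p = 0.0276), and the triptonide and triptolide libraries did not overlap but were not called different (limma adjusted p = 0.123). Both calls over control at XLOC.7198 were lost without either triptonide or either control library. Falls with triptolide were also called at XLOC.7397 (-1.64 ± 0.30, limma adjusted p = 0.0165), at XLOC.3904 (-1.72 ± 0.23, limma adjusted p = 0.00619) and at XLOC.1640 (limma adjusted p = 0.0473), the last with 1.48 and 0 FPKM with triptonide, 0 in both triptolide libraries, and 1.88 and 2.84 FPKM in control cells. The call at XLOC.7397 was lost without either control library or with the leading transcript alone. That at XLOC.1640 was lost without any 1 of the triptolide or control libraries.

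Of the 221 tested loci, 1 (0.452%) was called higher with triptonide than with triptolide and than in control cells, against 0.536% of all features. This locus was XLOC.4067. It had 3.96 and 3.42 FPKM with triptonide, 0.994 and 1.42 FPKM with triptolide, and 0.896 and 1.38 FPKM in control cells. Its triptonide libraries lay above the other 4, which overlapped. The log2 fold change of triptonide was 1.37 ± 0.23 over control (limma adjusted p = 0.0345) and 1.30 ± 0.23 over triptolide (limma adjusted p = 0.0297). The first call was lost when any one library was left out and the second without any 1 of the triptonide or triptolide libraries. With its leading transcript in place of the sum, the values were -0.07 over control and -0.18 over triptolide.

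In level, 1 locus outweighed the rest together. XLOC.7620 had 2278 and 1647 FPKM with triptonide, 7616 and 3868 FPKM with triptolide, and 2609 and 1932 FPKM in control cells. All loci together summed to 3218 and 2692 FPKM with triptonide, 8801 and 5410 FPKM with triptolide, and 3358 and 2719 FPKM in control cells, and without XLOC.7620 to 940 and 1045 FPKM, 1184 and 1543 FPKM, and 749 and 787 FPKM in the same groups. Both triptolide libraries of XLOC.7620 lay above the other 4, but they differed from each other by more than triptolide replicate 2 differed from the highest control library. Its log2 fold change with triptolide over control was 1.27 ± 0.38 and missed the threshold (limma adjusted p = 0.0605). The call was made under median-of-ratios scaling (1.59, limma adjusted p = 0.0383), when the libraries were scaled by their sum outside the top 100 features (1.46, limma adjusted p = 0.0459), when the replicate number was a block (limma adjusted p = 0.0163) and when triptolide replicate 2 was left out (1.76, limma adjusted p = 0.0304). Quantile normalization gives features of the same rank in each library the same value, and the log2 fold change there was 0.00. The call was not made under the remaining settings. Their log2 fold changes ran from 0.78 without triptolide replicate 1 to 1.49 without control replicate 1.

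Among the other abundant loci, some held steady and some varied within groups. XLOC.2720 had 117 and 113 FPKM with triptonide, 132 and 161 FPKM with triptolide, and 102 and 95.5 FPKM in control cells, and was 0.56 ± 0.11 higher on the log2 scale with triptolide than in control cells (limma adjusted p = 0.0182), a call lost without either control library. XLOC.4291 had 64.2 and 64.1 FPKM with triptonide, 44.3 and 50.4 FPKM with triptolide, and 59.0 and 54.0 FPKM in control cells. XLOC.4319 had 110 and 107 FPKM with triptonide, 13.8 and 163 FPKM with triptolide, and 90.2 and 6.57 FPKM in control cells. Its triptolide and control replicates were thus over 10-fold apart, and so were those of XLOC.5154, which had 0.187 and 2.68 FPKM with triptonide, 2.58 and 157 FPKM with triptolide, and 3.16 and 176 FPKM in control cells. The loci of at least 5 FPKM that varied least over the 6 libraries were XLOC.6476, XLOC.4291, XLOC.3561, XLOC.6156 and XLOC.3399, with ranges of 0.49 to 0.72 on the log2 scale. XLOC.3399 was nonetheless called higher with triptolide than in control cells, by 0.66 ± 0.07 (limma adjusted p = 0.00296), with 17.8 and 17.4 FPKM with triptonide, 21.8 and 21.4 FPKM with triptolide, and 13.9 and 13.0 FPKM in control cells. With triptonide it was called higher by 0.37 ± 0.07 (limma adjusted p = 0.0359), a call lost when any one library was left out. XLOC.4291 was called higher with triptonide than with triptolide, by 0.44 ± 0.08 (limma adjusted p = 0.0339), as described further below.

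Disagreement between replicates was more frequent in this set than in the annotated transcripts. Of loci reaching 1 FPKM in a library of the group, the other library was at 0 for 18 of 173 with triptonide (10.4%), 20 of 218 with triptolide (9.17%) and 11 of 87 in control cells (12.6%). The shares among annotated transcripts were 1.59% with triptonide, 2.35% with triptolide and 1.74% in control cells, and the difference was not tested. Some abundant loci were among them, such as XLOC.5257, which was picked out after its values were seen and had 0 and 20.8 FPKM with triptonide, 30.9 and 22.9 FPKM with triptolide, and 19.9 and 0 FPKM in control cells. XLOC.5725, picked out in the same way, had 19.9 and 15.9 FPKM with triptonide, 0 and 13.4 FPKM with triptolide, and 0 in both control libraries, and was not called in any comparison.

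The 38 loci with several transcripts held 131 of the 346 transcripts, and 28 of them had 2 transcripts, 2 had 3, 3 had 4, 2 had 8, and 1 each had 7, 11 and 23. The numbers of the transcripts skipped at least 1 value at 23 loci, and 18 loci with a single row had a number other than 1. Transcripts with the skipped numbers were not analysed here. The number of rows in the table, 65535, is the row limit of an older spreadsheet format, so the table may be cut, and sums, shares and counts of transcripts per locus may then be incomplete. Because the FPKM of overlapping transcripts are estimates that share reads, a split between transcripts of a locus is less certain than the sum.

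At most loci with several transcripts, these differed from the other group in the same direction. With triptolide over control, all transcripts of a locus stood higher at 16 of the 38 loci and all lower at 10, while at 12 they did not all point one way. With triptonide over control the numbers were 17, 5 and 16, and between triptonide and triptolide 9, 13 and 16. Counting only transcripts that moved by at least 1 log2 unit, loci with transcripts moving in both directions numbered 3 with triptolide over control, 5 with triptonide over control and 3 between the compounds. All such transcripts were higher at 13, 9 and 3 loci and lower at 5, 3 and 5 in those comparisons. The other 17, 21 and 27 of the 38 loci held fewer than 2 such transcripts and could not be mixed. At the 28 loci with 2 transcripts, the median gap between their log2 fold changes was 0.31 with triptolide over control, 0.59 with triptonide over control and 0.49 between the compounds. The standard deviation over all 346 transcripts was 1.64, 1.21 and 1.03 on the same scale in those comparisons. Of the 346, 73.7%, 76.9% and 34.1% had a log2 fold change above 0 there. Agreement within loci beyond this common direction was not tested.

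In the fit at the level of transcripts, 291 of the 346 were tested. With triptolide over control 156 were higher and 26 lower (12.4% and 23.1% of all features), with triptonide over control 87 were higher and 5 lower (6.27% and 4.36%), and between triptonide and triptolide 10 were higher and 51 lower (12.1% and 3.62%). Several transcripts of one locus were called at 17 loci with triptolide over control, and at 15 of these they were called in 1 direction. The corresponding numbers were 7 of 7 with triptonide over control and 3 of 5 between the compounds. Transcripts of a locus share reads and are no independent evidence of its change. Leaving out any 1 library lowered the calls over all features in every comparison. Without 1 library, the lower calls with triptolide numbered 17 without triptolide replicate 2, 9 without control replicate 1 and 10 without control replicate 2. The higher calls with triptonide numbered 28 and 17 without its replicates 1 and 2, and 11 and 15 without control replicates 1 and 2. Its 5 lower calls became 1 without either triptonide library, 2 without either triptolide library and 0 without either control library, with 122 and 121 transcripts at an unadjusted p under 0.05 in either direction when control replicates 1 and 2 were left out. Between triptonide and triptolide 2 higher and 1 lower calls were made without triptonide replicate 1. The higher calls numbered 4 without triptonide replicate 2 or triptolide replicate 1 and 6 without either control library. The lower calls numbered 23 without triptonide replicate 2, 8 and 7 without triptolide replicates 1 and 2, and 26 without either control library.

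**Figure D4:**
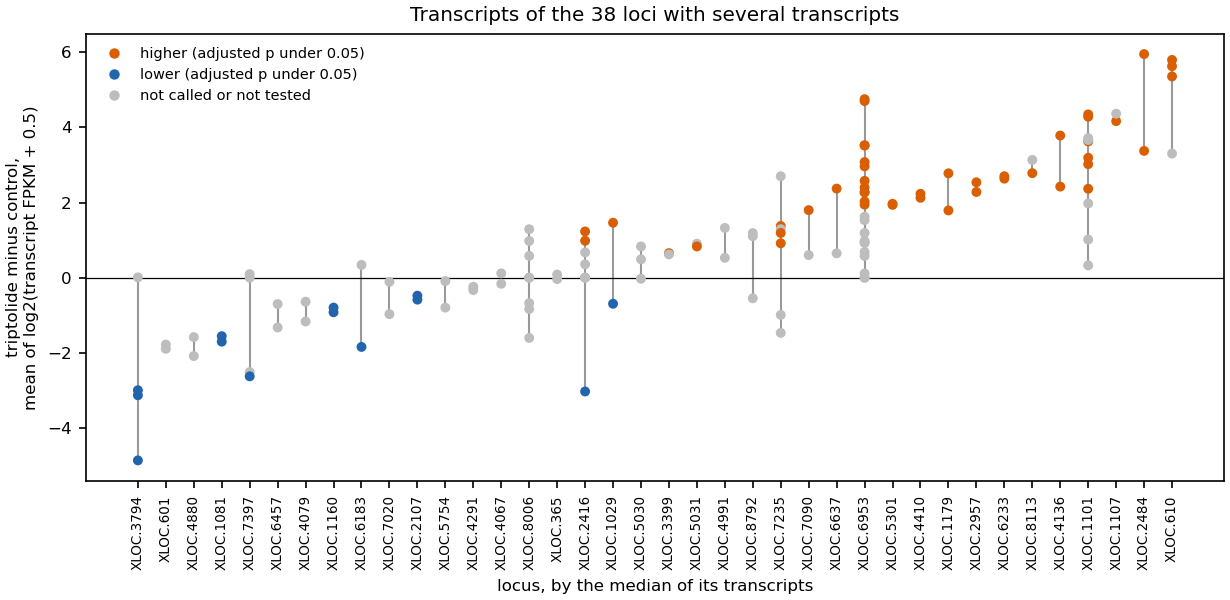
Triptolide minus control, as the difference of mean log2(transcript FPKM + 0.5), for the transcripts (dots) of the 38 loci with several transcripts, joined by a line within each locus and ordered by the locus median. Dots are coloured by the call of the transcript, and the lines of XLOC.1029 and XLOC.2416 hold both orange and blue dots.

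The pair of loci with most transcripts were among those with the largest rises, while XLOC.2416 and XLOC.8006, with 8 each, were called in no comparison and XLOC.3794 and XLOC.7397, with 4 each, were lower with triptolide than in control cells. XLOC.6953 had 23 transcripts, of which 8 were called higher with triptonide and 12 with triptolide, each over control. XLOC.1101 had 11 transcripts, all listed at 0 in both control libraries, of which 6 were called higher with each compound. The transcripts of both loci entered the test only through treated libraries, so these counts are a description. Its sum differed little between replicates, at 24.9 and 24.8 FPKM with triptonide, while the split did not repeat, since XLOC.1101.11 had 4.74 and 0 FPKM with triptonide and 2.60 and 13.4 FPKM with triptolide, and XLOC.1101.5 had 0.147 and 1.19 FPKM with triptonide and 1.16 and 23.7 FPKM with triptolide. XLOC.1107 showed the same in its pair of transcripts. XLOC.1107.1 had 5.85 and 1.52 FPKM with triptonide, 3.29 and 20.8 FPKM with triptolide, and 0 in control cells, and XLOC.1107.2 had 0.00151 and 7.42 FPKM with triptonide, 17.9 and 5.84 FPKM with triptolide, and 0.0218 and 0.0269 FPKM in control cells.

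XLOC.1101 was also 1 of the 2 loci with opposite calls between the compounds. XLOC.1101.3 had 2.26 and 2.17 FPKM with triptonide and 0.134 and 0.121 FPKM with triptolide. It reached 0.5 FPKM in the triptonide libraries alone, so it had to differ and is given with no test. XLOC.1101.4 was called higher with triptonide, by 1.49 ± 0.30 (limma adjusted p = 0.0404). XLOC.1101.1, in contrast, had 3.81 and 4.08 FPKM with triptonide and 11.7 and 7.27 FPKM with triptolide (-1.14 ± 0.25, limma adjusted p = 0.0468), and XLOC.1101.7 was lower as well (-1.27 ± 0.22, limma adjusted p = 0.0286). The sum of the locus was lower with triptonide, as given above.

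The sum of XLOC.2416 was called in no comparison, while transcripts of the locus were called in opposite directions. The sum was 3.89 and 3.13 FPKM with triptonide, 3.71 and 4.10 FPKM with triptolide, and 4.29 and 5.60 FPKM in control cells. All 4 treated libraries lay below both control libraries, with a log2 fold change of -0.30 ± 0.18 for triptolide over control (limma adjusted p = 0.259), which was 0.07 with quantile normalization. XLOC.2416.8 had 0.795 and 1.15 FPKM with triptonide, 0 in both triptolide libraries, and 3.01 and 4.24 FPKM in control cells. Its share of the locus was 20.4% and 36.6% with triptonide, 0% with triptolide, and 70.1% and 75.6% in control cells, so the 3 groups did not overlap. XLOC.2416.8 was lower than control with triptonide by a log2 fold change of -1.48 ± 0.23 (limma adjusted p = 0.0295), and with triptolide limma's adjusted p was 0.00171.

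Other transcripts of XLOC.2416 took the opposite direction. XLOC.2416.1, which reached 0.5 FPKM in the triptolide libraries alone and is therefore given with no test, had 0.157 and 0.189 FPKM with triptonide, 0.747 and 0.832 FPKM with triptolide, and 0.0665 and 0.0330 FPKM in control cells, and XLOC.2416.5 had 0.507 and 0.781 FPKM, 1.57 and 1.63 FPKM, and 0.548 and 0.576 FPKM in the same groups. With triptolide over control XLOC.2416.5 was higher by 0.98 ± 0.19 on the log2 scale (limma adjusted p = 0.0177). Between triptonide and triptolide the log2 difference was -0.89 ± 0.19 for XLOC.2416.5 (limma adjusted p = 0.0431), while XLOC.2416.8, listed at 0 with triptolide, was called higher with triptonide (limma adjusted p = 0.0197). In both triptolide libraries XLOC.2416.5 led the locus, with 42.3% and 39.8%, and in both control libraries XLOC.2416.8 did. The triptonide replicates disagreed on the rest, since XLOC.2416.4 took 28.6% and 0%.

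XLOC.1029 was the other locus with opposite calls with triptolide over control. XLOC.1029.2 had 4.70 and 4.23 FPKM with triptonide, 2.40 and 1.87 FPKM with triptolide, and 3.75 and 3.73 FPKM in control cells, a log2 fold change of -0.69 ± 0.15 with triptolide (limma adjusted p = 0.0240). XLOC.1029.3 had 1.07 and 0.858 FPKM with triptonide and 0.521 and 1.36 FPKM with triptolide, and was listed at 0 in both control libraries. It entered the test only through the treated libraries, so it had to differ from control and is given with no test. XLOC.1029.2 led the locus in all 6 libraries, and the share of XLOC.1029.3 was 18.5% and 16.9% with triptonide and 17.8% and 42.1% with triptolide.

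**Figure D5:**
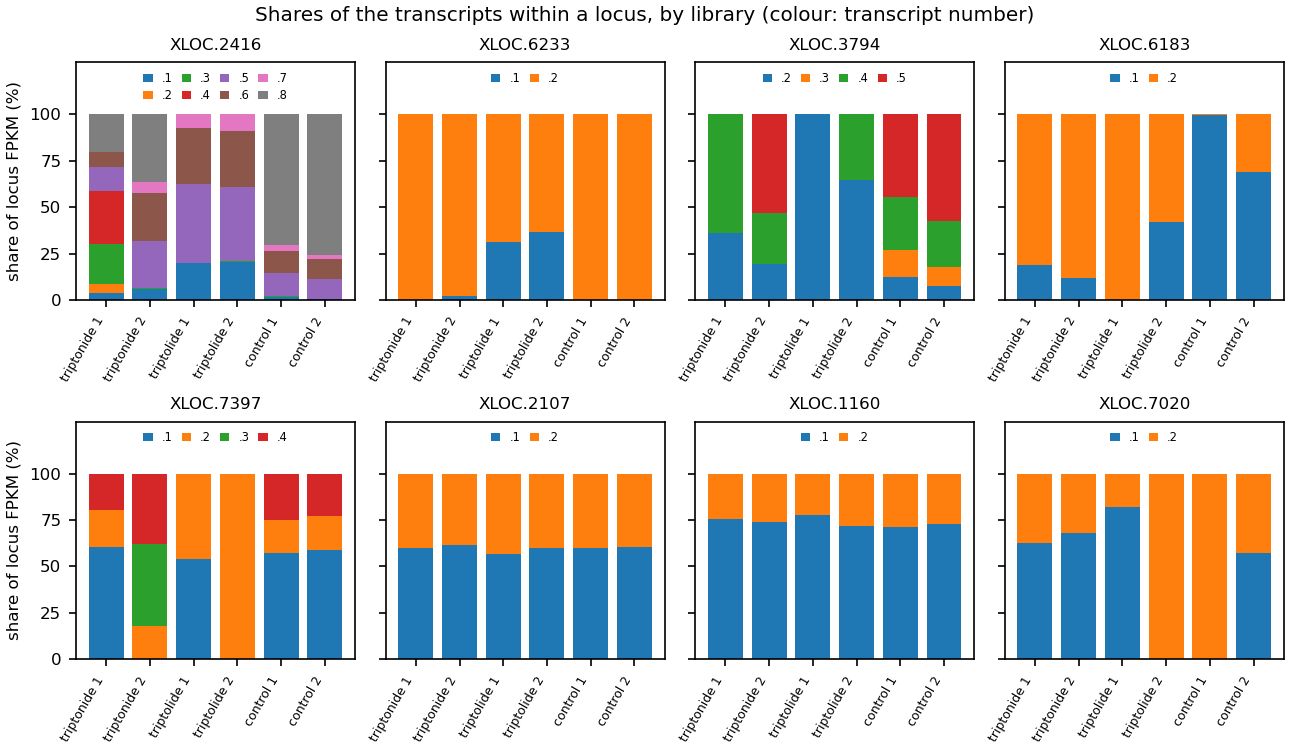
Share of each transcript in the summed FPKM of its locus (%, stacked bars adding to 100) in the 6 libraries, for 8 loci with several transcripts, with colours standing for the transcript number. XLOC.2416.8 is absent from both triptolide bars, XLOC.2107.1 takes between 56.9% and 61.8% and XLOC.1160.1 between 71.2% and 77.5% over the 6 bars, and the replicates of XLOC.7020 and XLOC.7397 disagree.

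Changes of the leading transcript, the one with the largest share, were compared by group means and between replicates. By group means the leader differed with triptonide over control at 14 of 32 loci with a value in both groups, with triptolide over control at 13 of 32, and between triptonide and triptolide at 13 of 37. Between the replicates of 1 group it differed at 14 of 37 loci with triptonide, 13 of 37 with triptolide and 6 of 28 in control cells. Among loci whose leader was the same in both libraries of each group, it differed at 1 of 14 with triptonide over control (XLOC.6183), at 3 of 16 with triptolide over control (XLOC.2416, XLOC.3794 and XLOC.6183), and at 1 of 19 between the compounds (XLOC.2957). The largest shift in share exceeded the largest gap between replicates at 7 of 27 loci with triptonide over control, 6 of 27 with triptolide over control and 5 of 37 between the compounds. The median shift was 21.4, 21.0 and 11.7 percentage points in those comparisons, against median largest replicate gaps of 28.6, 38.8 and 28.6 points.

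At XLOC.3794 the transcripts were lost unequally. XLOC.3794.2 had 3.41 and 2.45 FPKM with triptonide, 3.56 and 2.02 FPKM with triptolide, and 3.42 and 2.08 FPKM in control cells, so that its groups overlapped. XLOC.3794.5 had 0 and 6.63 FPKM with triptonide, 0 in both triptolide libraries, and 12.4 and 15.9 FPKM in control cells, while XLOC.3794.3 was listed at 0 in all 4 treated libraries and had 4.16 and 2.91 FPKM in control cells. The share of XLOC.3794.2 was 36.2% and 19.7% with triptonide, 100% and 64.6% with triptolide, and 12.3% and 7.51% in control cells. Its share was thus highest in the triptolide libraries, although its own level differed little between groups.

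XLOC.6233, XLOC.6183 and XLOC.2957 were picked out after their values were seen. At XLOC.6233 the sum was 6.25 and 7.10 FPKM with triptonide and 7.71 and 8.55 FPKM with triptolide, against 0.431 and 0.454 FPKM in control cells. The sum reached 0.5 FPKM in the treated libraries alone, so its rise over control is given with no test. XLOC.6233.1 was near 0 with triptonide at 0.00184 and 0.172 FPKM, had 2.40 and 3.14 FPKM with triptolide, and was listed at 0 in control cells. XLOC.6233.2 had 6.25 and 6.93 FPKM with triptonide, 5.30 and 5.41 FPKM with triptolide, and 0.431 and 0.454 FPKM in control cells. The first transcript thus held 0.0295% and 2.42% of the locus with triptonide and 31.2% and 36.8% with triptolide. XLOC.6233.1 reached 0.5 FPKM in the triptolide libraries alone and is given with no test, and XLOC.6233.2 was not called between the compounds (log2 difference 0.27 ± 0.12, limma adjusted p = 0.197).

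At XLOC.6183 the share of XLOC.6183.1 was 19.1% and 12.0% with triptonide, 0% and 42.2% with triptolide, and 99.6% and 68.9% in control cells. Its sum was 2.49 and 2.38 FPKM with triptonide, 0.411 and 1.09 FPKM with triptolide, and 2.34 and 2.43 FPKM in control cells, so the triptonide and control libraries overlapped in total and not in share. XLOC.6183.1 itself had 0.477 and 0.285 FPKM with triptonide, 0 and 0.459 FPKM with triptolide, and 2.33 and 1.68 FPKM in control cells, where alone it reached 0.5 FPKM, and is likewise given with no test. At XLOC.2957 the leader changed between the compounds by a small margin, since XLOC.2957.1 held 44.0% and 44.6% with triptonide and 53.5% and 59.3% with triptolide.

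At XLOC.2107 the shares of the transcripts lay close together in all 6 libraries. XLOC.2107.1 held 60.2% and 61.8% of XLOC.2107 with triptonide, 56.9% and 60.1% with triptolide, and 59.8% and 60.5% in control cells. The sum of XLOC.2107 was 29.3 and 36.4 FPKM with triptonide, 21.0 and 22.2 FPKM with triptolide, and 33.9 and 29.8 FPKM in control cells, with the triptolide libraries below the other 4 (log2 fold change over control -0.55 ± 0.13, limma adjusted p = 0.0320). That call was lost without any 1 of the triptolide or control libraries and under all 3 other scalings. At XLOC.7397 and XLOC.7020, which were among the 8 largest shifts of share of loci with at least 1 FPKM in each of the 6 libraries, replicates of 1 group disagreed, since XLOC.7397.1 held 60.3% and 0% of its locus with triptonide and 54.0% and 0% with triptolide, and XLOC.7020.1 held 82.1% and 0% with triptolide and 0% and 57.5% in control cells. XLOC.8006, XLOC.5030 and XLOC.8792, also among those 8, and XLOC.7235, named for its 7 transcripts, had a different leading transcript in the replicates of at least 1 group.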

How the data were processed

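Ribosomal-depleted RNA of 6 libraries (2 each of triptonide, triptolide and control) was measured, and the authors deposited 1 table of FPKM per transcript, made with STAR and StringTie per the submitters' processing notes, which give no versions and name hg19 although the labels give mouse. The table holds 65535 rows, the row limit of an older spreadsheet format, and may be cut, so that loci may be incomplete. Neither read counts nor absolute depth are given. The labels do not say that libraries came from separate cultures, and the spread behind each p-value may be technical. Their small number limits precision. Doses for triptonide are not given in the sources used here.

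Transcript FPKM were summed per locus, and log2(FPKM + 0.5) was fitted with limma 3.58.1 (R 4.3.3, intensity trend, 3 residual and 1.68 prior degrees of freedom), one fit over 6 libraries, with the locus sums entered beside 65189 annotated transcripts, and a second fit with all 65535 transcripts. Features needed at least 0.5 FPKM in 2 libraries, p-values were adjusted by Benjamini-Hochberg over all features tested, and the threshold was 0.05. The procedure was tested on simulated data. An exact test of 2 against 2 libraries cannot go below p = 0.333. Relative depth came from the most frequent ratio of low FPKM values between pairs of libraries, and 9 of 10 pairs not used to set it fell within 0.02 on the log2 scale. The correlation of deviations between libraries of the same replicate number was -0.038 (triptolide and control), 0.011 (triptonide and control) and 0.013 (triptonide and triptolide). Numbers thus showed no pairing over the tested features as a whole. Single loci may still follow the number, which was not tested. XLOC.5154 was lower in replicate 1 of every group, and XLOC.5257 was not.

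The members and lists were chosen with earlier results of these data known. Named loci are the 10 most abundant, the 6 with the largest called change in each direction and comparison, those with 4 or more transcripts, the 8 with the largest shift of share among loci of at least 1 FPKM in each of the 6 libraries, those with opposite calls, and the 5 with the smallest range. None of the 346 identifiers, and none of the 65535 in the table, matched the gene name tables at hand, so cell type markers could not be checked and no sequence is shown.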

Additional observations from a re-analysis of the deposited data

Results flagged for a closer look

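At 3 of the loci called between the compounds, both triptonide libraries lay on one side of both control libraries and both triptolide libraries on the other. XLOC.1029 had 5.77 and 5.09 FPKM with triptonide, 2.92 and 3.23 FPKM with triptolide, and 3.75 and 3.73 FPKM in control cells, with a log2 difference between triptonide and triptolide of 0.73 ± 0.12 (limma adjusted p = 0.0226). XLOC.4291 had 64.2 and 64.1 FPKM with triptonide, 44.3 and 50.4 FPKM with triptolide, and 59.0 and 54.0 FPKM in control cells, with a difference of 0.44 ± 0.08 (limma adjusted p = 0.0339). XLOC.5754, named after its values were seen, had 11.3 and 11.5 FPKM with triptonide, 6.97 and 6.05 FPKM with triptolide, and 8.25 and 8.65 FPKM in control cells, with a difference of 0.77 ± 0.10 (limma adjusted p = 0.0138). Against control, none of the 3 was called with triptonide and XLOC.5754 alone was called with triptolide (log2 fold change -0.36 ± 0.10, limma adjusted p = 0.0477). The calls between the compounds at XLOC.1029 were lost when any one library was left out, and those at XLOC.4291 when any one except triptolide replicate 2 was left out.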

How the results depend on the processing

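The higher loci with triptolide over control (127) stayed between 90 and 137 in every setting tried, and the lower ones (21) ranged from 9 to 20 when 1 library was left out. The other counts moved, and the cause was not tested beyond the smaller number of libraries or features that a setting leaves. With 1 library left out, calls over all features fell too in every comparison. With no filter on low values, higher and lower loci numbered 48 and 2 for triptonide over control and 7 and 29 for triptonide over triptolide, and transcripts 56 and 2 for triptonide over control, with 30 lower for triptonide over triptolide. A minimum of 1 FPKM gave 8 lower loci and 8 lower transcripts for triptonide over control, scaling to the sum outside the top 100 features gave 3 and 3, and fitting only the 2 groups compared gave 2 and 2. For triptonide over triptolide, fitting only the 2 groups gave 6 higher and 26 lower loci and 6 higher and 27 lower transcripts, median-of-ratios scaling gave 3 higher loci and 5 higher transcripts, quantile normalization 6 higher loci, the leading transcript alone 7 higher loci, and a pseudocount of 0.1 gave 33 lower transcripts. Median-of-ratios scaling moved the median log2 fold change of all features, for triptolide over control, to -0.01, against -0.26 as deposited, and left both triptonide libraries above both triptolide libraries at 28 loci.

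The replicate numbers showed no pairing over the tested features as a whole. With the replicate number as a block, triptonide over control gave 25 higher and 0 lower loci (limma, with 127 at an unadjusted p under 0.05 in either direction) and 35 higher and 1 lower transcripts, and triptonide over triptolide gave 4 higher and 21 lower loci and 5 higher and 22 lower transcripts. Without 1 library in turn, loci ranged from 12 to 61 higher and 0 to 2 lower for triptonide over control, and from 0 to 8 higher and 0 to 23 lower for triptonide over triptolide. Transcripts ranged from 9 to 25 lower for triptolide over control, from 11 to 76 higher and 0 to 2 lower for triptonide over control, and from 2 to 8 higher and 1 to 26 lower for triptonide over triptolide.

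The leading transcript, which differed by group means at 13 of 32 loci for triptolide over control, 14 of 32 for triptonide over control and 13 of 37 for triptonide over triptolide, differed at 3 of 16, 1 of 14 and 1 of 19 in that order among the fewer loci with the same leader in both libraries, and at 6 of 16, 6 of 18 and 11 of 29 among those with a sum of at least 1 FPKM in every library. Loci with transcripts moving in both directions numbered 3, 5 and 3 in those comparisons when only moves of at least 1 log2 unit counted. By that rule 17, 21 and 27 of the 38 loci held fewer than 2 such transcripts and could not be mixed. Of the calls of named loci, 18 of 26 for triptolide over control, 4 of 13 for triptonide over control and 0 of 21 for triptonide over triptolide were kept under all settings, and all 21 of the last were lost without triptonide replicate 1. The 4 kept for triptonide over control, and some of the 18 for triptolide, are at loci that reached 0.5 FPKM in no control library and had to differ. Signs turned for XLOC.4067 with its leading transcript alone (-0.07 over control and -0.18 over triptolide) and for XLOC.2416 with quantile normalization (0.07 for triptolide over control). Fold changes of loci near 0 depend on the pseudocount: the median for triptolide over control was 2.53 with 0.1 and 1.03 with 1.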

Other observations

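Runs of consecutive locus numbers were found among the loci, and what the numbering follows is not given in the sources used here. The 11 runs held 26 loci, and in 6 of them every locus had the same presence class. The longest run, XLOC.2484 to XLOC.2487, was called higher with both compounds at all 4 loci. XLOC.2485 had 2.26 and 3.55 FPKM with triptonide, 4.04 and 4.74 FPKM with triptolide, and 0 in both control libraries. XLOC.2487 had 1.31 and 1.78 FPKM with triptonide, 2.97 and 3.18 FPKM with triptolide, and 0 in both control libraries. All 4 loci of that run were thus at or near 0 in control cells. They entered the test only through the treated libraries and had to differ from control.

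The run XLOC.3902 to XLOC.3904 was lower with triptolide at 2 of its 3 loci. XLOC.3903 had 1.95 and 1.85 FPKM with triptonide, 0.503 and 1.03 FPKM with triptolide, and 3.15 and 3.01 FPKM in control cells (log2 fold change with triptolide -1.53 ± 0.24, limma adjusted p = 0.0101). XLOC.3904 had 0.573 and 0.557 FPKM with triptonide, 0 and 0.161 FPKM with triptolide, and 1.17 and 1.66 FPKM in control cells. XLOC.3902 had 2.45 and 2.74 FPKM with triptonide, 0.163 and 0.0675 FPKM with triptolide, and 4.50 and 0.614 FPKM in control cells and was not called (limma adjusted p = 0.103 for triptolide over control). Its control replicates lay far apart. These runs were picked out after their values were seen.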
